A study of Mus musculus with 41 samples.

Results

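The genes that make, move and sense lactate were examined in 24 peak lists of histone marks from mouse cells and tissues. The members were chosen by name and are 10 protein-coding genes of 21755 on chromosomes 1 to 19 and X. They are the lactate dehydrogenase genes Ldha, Ldhb, Ldhc and Ldhd, the lactate carrier genes Slc16a1, Slc16a3 and Slc16a7, the carrier partner genes Bsg and Emb, and the lactate receptor gene Hcar1. The study used CUT&Tag, in which an antibody brings the transposase Tn5 to a histone mark so that the DNA beside it is cut and tagged. It mapped H3K18la, a lactylated lysine of histone H3, in 8 cell types, with H3K27ac in 5, H3K4me3 in 4 and H3K27me3 in 7 of them. The 41 samples form 24 groups of a cell type and a mark, of which 17 hold 2 samples and 7 hold 1 sample.

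The embryonic stem cells were the E14 line, grown in serum-lif (mESC-ser) or in 2i-lif (mESC-2i). The other samples were from C57BL/6 mice: primary myoblasts (MB), myotubes that had been grown from such myoblasts (MT), gastrocnemius muscle (GAS), macrophages cultured from bone marrow (BMDM), macrophages from muscle after ischemia (PIM) and white adipocytes (ADIPO). According to the study's methods the tissue came from adult female mice, PIM were sorted by macrophage surface markers from the calf after ligation of the limb's arteries, and ADIPO tissue came from mice carrying AdipoCre and NuTRAP, in which an adipocyte-driven Cre switches on a tag for nuclei and ribosomes. The methods also state that ADIPO nuclei were captured on streptavidin beads, which were then washed. GAS was whole muscle and so held other cells than muscle fibres. Every sample, PIM included, is recorded as control for treatment.

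As background, glycolysis ends in pyruvate, and lactate dehydrogenase reduces pyruvate to lactate or runs in the other direction. The enzyme is a tetramer of A and B subunits in most tissues, the A form being the main one of glycolytic muscle and the B form that of the heart. Monocarboxylate carriers move lactate with a proton across the cell membrane, and need a membrane glycoprotein partner to reach it. Lactate outside the cell can be sensed by a receptor that lowers lipolysis in adipocytes. Lactate is also the source of the lactyl group of H3K18la, so these genes act on the supply of the mark that was mapped. H3K27ac and H3K4me3 are marks of active promoters (and, for H3K27ac, of enhancers), and H3K27me3 is a mark of Polycomb repression.

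A gene was called in a list where a peak overlapped its promoter, defined as 2 kb on each side of any of its annotated starts. The level given is the signal percentile, the rank of the top overlapping peak by its total signal among the peaks of its own list, with 100 for the strongest peak of a list and 0 where no peak was called. The replicates had been combined before the peaks were called, so a value has no replicate error and the cell type is the unit. The tests treat the cell types as independent, which they are not. The mESC-ser and mESC-2i cells were the same line, MT were grown from myoblasts such as MB, and BMDM and PIM are both macrophages. The p-values therefore rest on fewer independent units than cell types. The lists come from bulk chromatin, in which fewer marked cells and less mark per cell cannot be told apart. Between 11002 and 36813 peaks per list were used, and a percentile compares a gene with other peaks of its list and not with the same gene elsewhere in absolute signal. Percentiles are by total signal, which grows with the width of a peak, unless the maximum signal is named.

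The H3K18la lists carried the marker genes of their labelled cells, in MB in part. H3K18la lay at the promoters of 6 of 6 stem cell markers in mESC-ser and mESC-2i, of 6 of 6 macrophage markers in BMDM and PIM, of 7 of 7 muscle markers in GAS and MT and of 6 of 6 adipocyte markers in ADIPO. In MB it lay at 3 of 7 muscle markers (Myod1, Ttn and Des). The muscle set was the same for MB, MT and GAS, and no separate set of myoblast markers was used. The GAS list also held H3K18la at 4 of 4 endothelial, 4 of 4 fibroblast and 2 of 6 macrophage markers, the MT list at 3 of 6 macrophage markers and the ADIPO list at 3 of 4 fibroblast and 2 of 6 macrophage markers. Neutrophil markers were called at 2 of 3 and endothelial markers at 2 of 4 in BMDM and PIM. Adipocyte markers were called at 3 of 6 in PIM (Adipoq, Pparg and Lipe) and 1 of 6 in BMDM (Adipoq), and muscle markers at 2 of 7 in ADIPO.

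H3K18la was called at member promoters in 41 of 80 combinations of a gene and a cell type (51.2%), against 31.8% over all protein-coding genes. The members called numbered 6 in mESC-ser, mESC-2i, GAS and PIM, 5 in MT, 4 in BMDM, 8 in ADIPO and 0 in MB. The shares of all protein-coding promoters with the mark were 33.4% in mESC-ser, 37.8% in mESC-2i, 36.1% in GAS, 37.8% in PIM, 34.8% in MT, 18.5% in BMDM, 44.7% in ADIPO and 11.1% in MB. The share of members was above that of all genes in 7 of 8 cell types and below it in MB. Counting any peak from 2 kb before the gene to its end raised the calls to 46 of 80 (57.5%), against 38.4% over all genes.

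The members also carried the other active marks more often than the average gene. H3K27ac was called in 32 of 50 combinations (64%, against 43.2% over all genes), at 7 members in mESC-ser, PIM and ADIPO, 6 in GAS and 5 in BMDM. The shares of all promoters were 40.2% in mESC-ser, 48.8% in PIM, 46.1% in ADIPO, 47% in GAS and 34% in BMDM. H3K4me3 was called in 30 of 40 combinations (75%, against 58.5%), at 7 members in mESC-ser and GAS and 8 in mESC-2i and PIM. All promoters had it at 48.8% in mESC-ser, 64.2% in GAS, 61.8% in mESC-2i and 59.4% in PIM. For H3K27me3 the count was 13 of 70 (18.6%), near the 21.7% of all genes. It was called at 3 members in mESC-ser and mESC-2i, 4 in GAS, 1 in BMDM, 2 in PIM and 0 in MB and MT. Over all promoters its shares were 27% in mESC-ser, 22.5% in mESC-2i, 23.9% in GAS, 19.2% in BMDM, 26.4% in PIM, 12.5% in MB and 20.1% in MT.

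**Figure D1:**
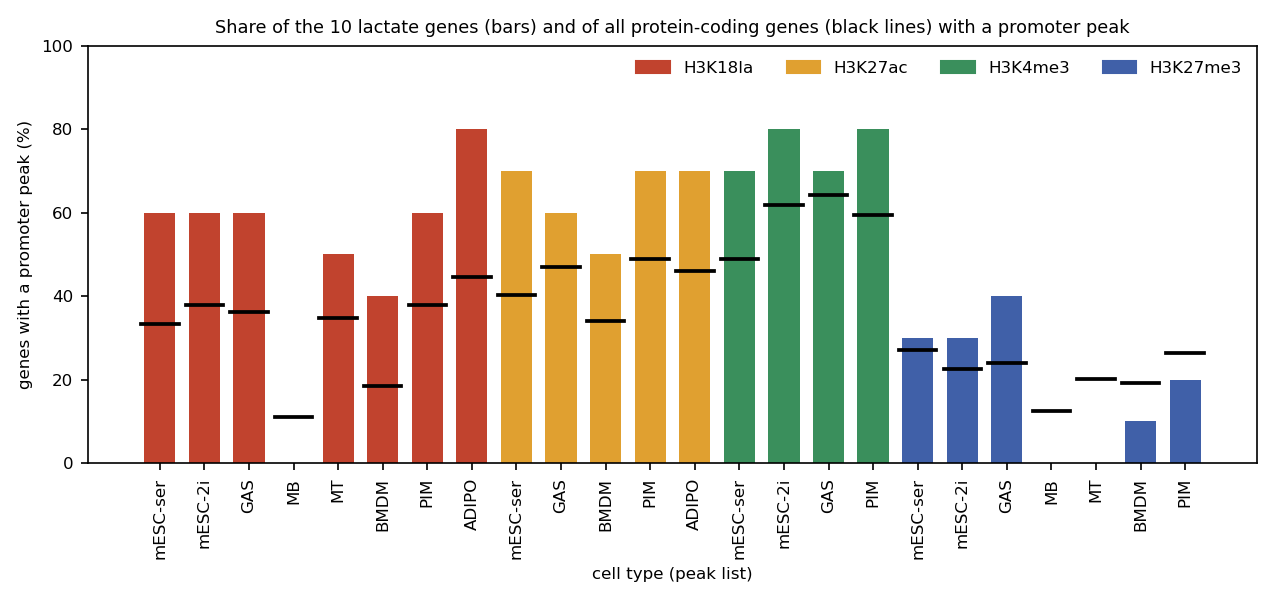
Percent of genes with a promoter peak (y axis) in each of the 24 lists (x axis, coloured by mark), with bars for the 10 lactate genes and black lines for all 21755 protein-coding genes. The bars stand above the lines in the active marks apart from MB, where no lactate gene was called, and lie on both sides of the lines in H3K27me3.

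The MB lists held no peak of H3K18la or H3K27me3 in the promoter or body of any member. The nearest H3K18la peak lay 11.3 kb from Slc16a1, 19.3 kb from Bsg and 24.2 kb from Hcar1, and at least 32.7 kb from the other members, the farthest being 584 kb from Slc16a7. Both MB lists, like the 3 BMDM lists, rest on 1 sample, and with 13550 peaks the H3K18la list was the shortest of that mark. The cause of the empty MB lists at these genes was not tested.

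**Figure D2:**
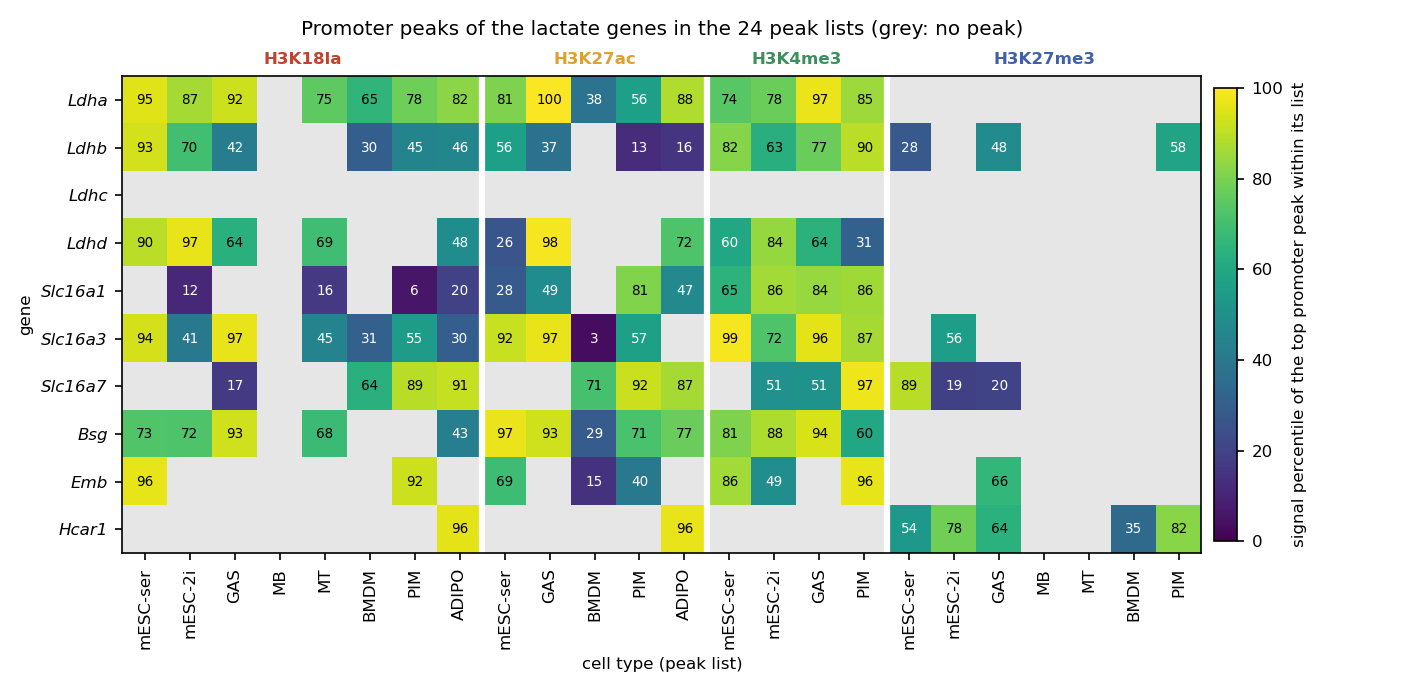
Signal percentile of the top promoter peak (colour and printed number, rounded) for the 10 genes (rows) in the 24 lists (columns, grouped by mark), with grey where no peak was called. Ldhc is grey in every list, Hcar1 has active marks in ADIPO and H3K27me3 in 5 of 7 lists, and Slc16a1 has high H3K4me3 beside low or absent H3K18la.

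Among the dehydrogenases, Ldha, the gene of the A subunit, carried active marks in each cell type but MB and H3K27me3 in none. The gene lies at chr7:46841475-46855627 on the plus strand of mm10. Its H3K18la percentile was 95 in mESC-ser, 86.7 in mESC-2i, 92.4 in GAS, 0 in MB, 75 in MT, 65.3 in BMDM, 78.0 in PIM and 82.5 in ADIPO. By total signal the stem cells and whole muscle stood highest and BMDM lowest among the lists that called it. By maximum signal the peak of mESC-2i, 10335 bp wide, stood at 62.2, below MT (69.3) and ADIPO (68.8), and that of BMDM at 21.7. H3K27ac stood at 80.8 in mESC-ser, 99.5 in GAS, 38.2 in BMDM, 56.3 in PIM and 87.9 in ADIPO. In GAS that H3K27ac peak was 33789 bp wide and ranked 169 of 35286, and its maximum lay at -18.2 kb from the main start. H3K4me3 stood at 74.0 in mESC-ser, 77.6 in mESC-2i, 97.2 in GAS and 85.4 in PIM.

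The peaks at Ldha fell mostly into 2 places. The first was the main start, that of the reference transcript Ldha-202, and the second was centred at -6.64 kb from it, upstream of the most distal annotated start and in no annotated gene. The upstream place was covered in 7 of 8 H3K18la lists, 5 of 5 H3K27ac lists, 3 of 4 H3K4me3 lists and 0 of 7 H3K27me3 lists. In 12 peaks of active marks the maximum lay between -6.86 and -6.16 kb from the main start. In BMDM the upstream peak, 2105 bp wide with 378 bp inside the promoter window, was the sole H3K18la peak of the gene, while H3K27ac of the same cells was called at both places.

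The 2 places ranked in a different order for the different marks. Where H3K18la gave separate peaks, the upstream peak ranked above the one at the start in 4 of 4 cell types. The percentiles were 92.4 against 91.0 in GAS, 75 against 67.8 in MT, 78.0 against 42.9 in PIM and 82.5 against 79.9 in ADIPO. For H3K27ac the start ranked above the upstream place in 4 of 4 cell types, at 80.8 against 48.4 in mESC-ser, 38.2 against 26.1 in BMDM, 56.3 against 5.34 in PIM and 87.9 against 80.3 in ADIPO. For H3K4me3 the start ranked higher in 3 of 3, at 77.6 against 10.7 in mESC-2i, 97.2 against 64.5 in GAS and 85.4 against 32.2 in PIM. By maximum signal in place of total signal the order was the same except for H3K27ac in BMDM, where the upstream peak stood at 25.6 and the start at 8.5. The H3K18la peaks of mESC-ser and mESC-2i covered both places and are not in these counts, and the maximum of the mESC-2i peak lay at the start (-0.051 kb). This contrast was noticed in the peaks, rests on few lists and was not tested.

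**Figure D3:**
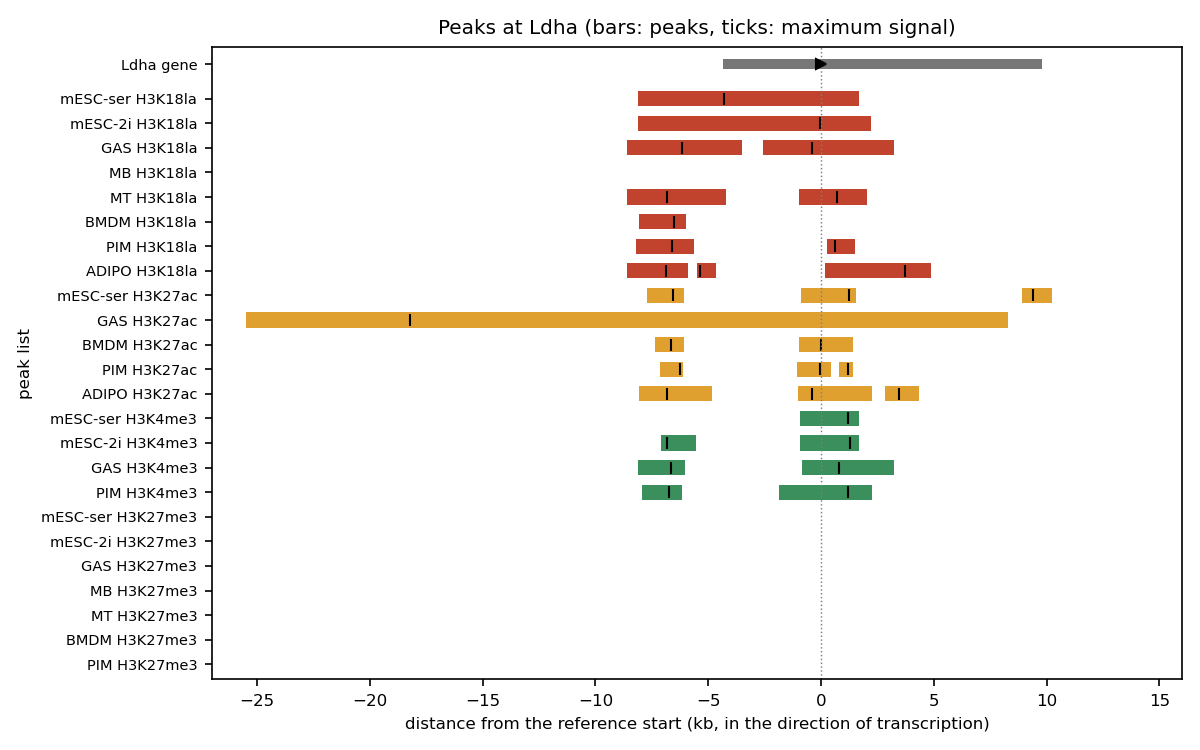
Peaks at Ldha in each of the 24 lists (rows, coloured by mark), against the distance from the main start in kb (x axis), with black ticks at the maxima and the gene as a grey bar. Active-mark peaks gather at the main start and around -6.64 kb, and no H3K27me3 peak is present.

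The bases of these 2 places are shown because the active marks gather at them. The promoter stretch is chr7:46845554-46845803, the 250 bases before the RefSeq start, with no annotated exon in it. The upstream window is chr7:46839049-46839348, the 300 bases around the median of the 12 maxima. Both are read on the plus strand, and capitals mark ACGTG (the core of a hypoxia response element) or GGGCGG (a GC box), on either strand.
Ldha promoter: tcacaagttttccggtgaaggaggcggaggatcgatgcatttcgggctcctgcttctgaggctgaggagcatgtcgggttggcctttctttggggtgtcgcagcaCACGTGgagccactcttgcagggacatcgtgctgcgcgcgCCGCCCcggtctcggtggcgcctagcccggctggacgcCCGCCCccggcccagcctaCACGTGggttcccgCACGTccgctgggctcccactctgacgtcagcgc
Ldha upstream window: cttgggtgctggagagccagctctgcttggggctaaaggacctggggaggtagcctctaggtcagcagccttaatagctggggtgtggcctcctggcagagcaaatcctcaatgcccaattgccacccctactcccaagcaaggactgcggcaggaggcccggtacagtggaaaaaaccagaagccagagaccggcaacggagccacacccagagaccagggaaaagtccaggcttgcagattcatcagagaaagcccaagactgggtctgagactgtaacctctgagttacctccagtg
The promoter held 3 sites of ACGTG, counting overlapping matches once, and 2 of GGGCGG, with 25 CpGs and a GC content of 67.2%. A further RefSeq stretch of Ldha, chr7:46846832-46847081, held neither motif and 9 CpGs, and the H3K4me3 maxima of mESC-ser and PIM lay inside it. ACGTG occurred on either strand in 16.7% and GGGCGG in 33% of the 32619 RefSeq promoter stretches of the same length, whose median CpG count was 6. The upstream window held neither, and 4 CpGs. Among 300-base windows at H3K18la maxima, ACGTG was present in 18.9% in PIM, 17.8% in BMDM and 17.3% in mESC-ser. GGGCGG was present in 14.7%, 12.8% and 24.5% of them.

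Ldhb, the gene of the B subunit, was called in 14 of the 17 active-mark lists, against 16 for Ldha, and in 3 H3K27me3 lists. By total signal its H3K18la and H3K27ac ranks were below those of Ldha in each list that called either gene. The H3K18la values of Ldha in PIM and BMDM belong to its upstream place, however. At its main start Ldha stood at 42.9 in PIM, below Ldhb at 45.0, and had no H3K18la peak in BMDM. By maximum signal the H3K18la order turned in mESC-2i (66.8 against 62.2), BMDM (44.1 against 21.7) and PIM (67.2 against 58.1). Ldhb lies at chr6:142490249-142507957 on the minus strand. Its H3K18la percentile was 93.1 in mESC-ser, 69.9 in mESC-2i, 42.2 in GAS, 0 in MB, 0 in MT, 30.3 in BMDM, 45.0 in PIM and 45.9 in ADIPO. The mESC-ser peak was 9885 bp wide, and the others that led their list at this gene were 722 to 6588 bp wide. H3K27ac stood at 56.5 in mESC-ser, 37.4 in GAS, 0 in BMDM, 12.8 in PIM and 15.6 in ADIPO. H3K4me3 stood at 81.8 in mESC-ser, 62.6 in mESC-2i, 77.3 in GAS and 89.6 in PIM, above Ldha in mESC-ser and PIM and below it in the other lists by total signal. By maximum signal Ldhb was below Ldha in mESC-ser (54.2 against 72.2) and above it in mESC-2i (75.6 against 73).

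Both stem cell lists had an additional H3K18la peak of Ldhb with its maximum 4.11 kb into the gene, at percentiles 34.6 in mESC-ser and 10.2 in mESC-2i. H3K27me3 was also called near Ldhb in 3 of 7 lists, at 58.4 in PIM, 48.4 in GAS and 28.1 in mESC-ser, or 74.2, 23.6 and 53.1 by maximum signal. In PIM the H3K27me3 peak covered all 1302 bases of the H3K18la peak, in mESC-ser the wider H3K18la peak covered all 1928 bases of the H3K27me3 peak, and in GAS they shared 135 bases. The maxima of H3K27me3 lay at -1.73 kb from the start in mESC-ser, at -2.25 kb in GAS and 5 bp after it in PIM.

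Ldhc, which codes for the dehydrogenase of sperm, had no peak in any of the 24 lists, active or repressive, in its promoter or its body. It lies at chr7:46861203-46878142, 5.58 kb beyond the end of Ldha. Its promoter is shown because no mark was called on it. The stretch chr7:46861013-46861202 on the plus strand ends at the first annotated exon, and capitals mark GGGCGG.
Ldhc promoter: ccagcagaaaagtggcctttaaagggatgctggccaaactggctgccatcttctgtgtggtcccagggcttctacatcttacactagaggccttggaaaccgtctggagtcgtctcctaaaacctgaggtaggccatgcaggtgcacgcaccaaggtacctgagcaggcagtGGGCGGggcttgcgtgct
The full 250 bases before the RefSeq start held 8 CpGs and 1 GGGCGG site, and no ACGTG.

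Ldhd, the gene of the mitochondrial dehydrogenase of D-lactate, was called for H3K18la in 5 of 8 cell types and for H3K27me3 in 0 of 7. It lies at chr8:111623785-111630374 on the minus strand. For H3K18la it stood at 89.8 in mESC-ser, 96.8 in mESC-2i, 63.5 in GAS, 0 in MB, 69.3 in MT, 0 in BMDM, 0 in PIM and 48.5 in ADIPO. The mESC-2i value belongs to a peak of 22964 bp that also covered the promoter of the neighbouring Znrf1, and its maximum lay 17.0 kb from the Ldhd start. In GAS, MT, PIM and ADIPO a peak had its maximum 6.17 to 6.21 kb into the gene, near its end, at percentiles 96.9, 69.3, 40.2 and 91.4. H3K27ac stood at 26.5 in mESC-ser, 98.5 in GAS, 0 in BMDM, 0 in PIM and 72.3 in ADIPO, so neither macrophage type had either acylation at the promoter. H3K4me3 was present in PIM nonetheless, at 30.9, beside 59.8 in mESC-ser, 84.1 in mESC-2i and 64.3 in GAS. The H3K4me3 order changed by maximum signal, with 24.3 in PIM, 4.48 in mESC-ser, 43.7 in mESC-2i and 78.7 in GAS, and the mESC-ser peaks fell to 60.3 for H3K18la and 8.78 for H3K27ac.

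Among the carriers, Slc16a1, the gene of the widely used carrier MCT1, combined strong H3K4me3 with weak or absent H3K18la. It lies at chr3:104638668-104658462 on the plus strand. Its level of H3K18la was 0 in mESC-ser, 11.6 in mESC-2i, 0 in GAS, 0 in MB, 16.5 in MT, 0 in BMDM, 6.21 in PIM and 19.8 in ADIPO. These 4 called values, at most 19.8, were below those of Ldha in each of the same lists. By maximum signal the same peaks stood higher, at 37.2 in mESC-2i, 44.6 in MT, 38.1 in PIM and 28.9 in ADIPO. H3K4me3 stood at 64.6 in mESC-ser, 86.1 in mESC-2i, 84.5 in GAS and 85.8 in PIM. H3K27ac stood at 28.5 in mESC-ser, 48.6 in GAS, 0 in BMDM, 81.1 in PIM and 47.1 in ADIPO. By maximum signal H3K27ac stood at 68 in mESC-ser and 24 in GAS. In PIM the promoter ranked high for H3K27ac and H3K4me3 by either measure, and at 6.21 for H3K18la by total signal. In GAS the H3K27ac peaks flanked the start, with maxima at -2.45 kb and 2.38 kb from it.

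The Slc16a1 promoter is shown because it was the richest in CpG among the members with a RefSeq stretch. It is chr3:104638414-104638663 on the plus strand, in no annotated exon of the gene, with capitals for ACGTG and GGGCGG on either strand.
Slc16a1 promoter: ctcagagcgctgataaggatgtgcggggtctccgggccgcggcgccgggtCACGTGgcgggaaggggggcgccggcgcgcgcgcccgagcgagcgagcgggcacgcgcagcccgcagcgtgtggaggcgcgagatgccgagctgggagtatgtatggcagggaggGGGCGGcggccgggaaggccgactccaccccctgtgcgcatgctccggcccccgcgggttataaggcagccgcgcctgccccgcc
It held 37 CpGs, more than 97.8% of all promoter stretches, with a GC content of 76.4%, 1 ACGTG site and 1 GGGCGG site. The stretch of Slc16a3 held 29 CpGs, that of Ldhb 14, that of Ldhd 9, and those of Emb and Hcar1 6 each. TATAAA, found in 12.4% of all stretches, was in none of the 10 stretches of the 8 members that matched, and Slc16a7 and Bsg had no entry.

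Slc16a3, the gene of MCT4, the carrier that glycolytic cells use to export lactate, was called for H3K18la in 7 of 8 cell types. It lies at chr11:120948480-120960868 on the plus strand. Its H3K18la percentile was 93.5 in mESC-ser, 40.6 in mESC-2i, 96.7 in GAS, 0 in MB, 44.6 in MT, 30.6 in BMDM, 55.2 in PIM and 30 in ADIPO. By total signal GAS and mESC-ser stood far above the other lists. By maximum signal the same peaks stood at 80.5 in mESC-ser, 6.18 in mESC-2i, 91.9 in GAS, 22.5 in MT and 55 in BMDM. In GAS the peak at the start was 6492 bp wide and ranked 1200 of 36813, and a further one ran past the gene end over the promoter of Csnk1d at a percentile of 92.1. H3K4me3 was higher in mESC-ser (98.7, rank 144 of 11002) than in mESC-2i (72.4, or 41 by maximum signal), and stood at 95.8 in GAS and 86.6 in PIM. H3K27ac stood at 91.7 in mESC-ser, 96.7 in GAS, 3.28 in BMDM, 56.8 in PIM and 0 in ADIPO.

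The stem cell states differed at Slc16a3 in the repressive mark as well. H3K27me3 was called in mESC-2i at a percentile of 55.6 (27.5 by maximum signal) and in none of the other 6 lists. That peak, 4486 bp wide, lay entirely under the H3K18la peak of mESC-2i and its maximum was at -0.48 kb from the start. The differences between mESC-ser and mESC-2i set 1 list against another and could not be tested.

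Slc16a7, the gene of the high-affinity carrier MCT2, was marked in macrophages and adipocytes. It spans 170196 bp at chr10:125219270-125389465 on the minus strand. Its H3K18la percentile was 0 in mESC-ser and mESC-2i, 16.9 in GAS, 0 in MB and MT, 63.6 in BMDM, 89.3 in PIM and 91.1 in ADIPO. By maximum signal GAS stood at 43.4, above BMDM at 28.1, while PIM stood at 87.1 and ADIPO at 89.4. H3K27ac was called in the same macrophages and adipocytes, at 70.8 in BMDM, 91.9 in PIM and 86.6 in ADIPO, and in neither mESC-ser nor GAS, the BMDM value being 41 by maximum signal. The part of other cells in these peaks, PIM having H3K18la at 3 of 6 adipocyte markers and ADIPO at 2 of 6 macrophage markers, was not tested. H3K4me3 was 0 in mESC-ser, 50.6 in mESC-2i, 51.1 in GAS and 97.4 in PIM. H3K27me3 showed a different distribution, with 89.2 in mESC-ser, 19 in mESC-2i, 20.5 in GAS and 0 in MB, MT, BMDM and PIM. The stem cell peaks stood close together by maximum signal, at 97.8 in mESC-ser and 93 in mESC-2i. In GAS the H3K18la and H3K27me3 peaks shared 1291 bases.

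Of the 21 H3K18la peaks of Slc16a7, 14 lay in the gene body outside every promoter window. BMDM and PIM shared a place 19.2 to 19.3 kb into it, at percentiles 69.5 and 80.4, which also carried H3K27ac in BMDM (52.9) and H3K4me3 in PIM (81.9). In ADIPO the nearest maxima lay 16.6 kb into the gene for H3K18la, at 94.4, and 13.7 and 16.6 kb for H3K27ac, and no ADIPO peak covered the macrophage window. Beside that window the peaks did overlap. The ADIPO H3K18la peak reached 18645 bp into the gene, and those of BMDM and PIM began at 17798 and 18003 bp. For H3K27ac the ADIPO peak reached 18436 bp and the BMDM peak began at 17836 bp. Around 67.8 to 67.9 kb, BMDM, PIM and ADIPO all had H3K18la maxima, at 75.3, 50.1 and 86.5.

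The macrophage window, centred on maxima of BMDM and PIM, is shown because it was covered in lists of these cells and of no other cell type. It is chr10:125370083-125370382, 300 bases in an intron read on the minus strand, and capitals mark GAGGAAGT on either strand, a form of the site of the macrophage factor PU.1.
Slc16a7 intron window: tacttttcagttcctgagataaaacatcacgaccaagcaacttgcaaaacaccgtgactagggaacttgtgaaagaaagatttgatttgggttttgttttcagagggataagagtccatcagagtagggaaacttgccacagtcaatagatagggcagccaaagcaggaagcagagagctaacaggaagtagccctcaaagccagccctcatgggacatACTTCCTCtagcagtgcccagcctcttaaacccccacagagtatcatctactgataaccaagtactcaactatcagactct
It held 1 such site, 2 CpGs and no TGANTCA, a site of AP-1 factors. GAGGAAGT was present in 8.24% of the windows of this length at PIM H3K18la maxima, in 10.4% at BMDM maxima and in 2.85% at mESC-ser maxima, and TGANTCA in 28.7%, 26.1% and 11.5%.

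Bsg, the gene of basigin, which takes MCT1 and MCT4 to the membrane, was called for H3K27ac in 5 of 5 and H3K4me3 in 4 of 4 lists but for H3K18la in 5 of 8. It lies at chr10:79704491-79711969 on the plus strand. H3K18la stood at 72.9 in mESC-ser, 72.5 in mESC-2i, 92.9 in GAS, 0 in MB, 68.0 in MT, 0 in BMDM, 0 in PIM and 42.6 in ADIPO. H3K27ac stood at 97.2 in mESC-ser, 92.6 in GAS, 29.1 in BMDM, 71.1 in PIM and 77.3 in ADIPO. By maximum signal the H3K18la peaks stood at 38.8 in mESC-ser, 34 in mESC-2i and 25.4 in MT, and the mESC-ser H3K27ac peak at 56. In both macrophage types the promoter therefore had H3K27ac without H3K18la, and in PIM H3K4me3 as well, at 60. H3K27me3 was called in 0 of 7 lists.

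Emb, the gene of embigin, the partner of MCT2, was called for H3K18la at its promoter in mESC-ser at 96.1 and in PIM at 92.2 and in no other cell type. It lies at chr13:117208536-117274415 on the plus strand. H3K27ac stood at 68.9 in mESC-ser, 14.7 in BMDM and 40.5 in PIM and was 0 in GAS and ADIPO. H3K4me3 stood at 86.2 in mESC-ser, 49.0 in mESC-2i, 0 in GAS and 96.3 in PIM. The BMDM H3K27ac call rests on 73 bp inside the window. H3K27me3 was called at the start in GAS, at 66.4, and in 0 of the other 6 lists.

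Gene body peaks added GAS, MT and BMDM to the H3K18la cell types of Emb. BMDM and PIM had neighbouring maxima at -8.69 and -8.53 kb from the main start, at 2.87 and 2.95 kb, and at 17.1 kb in both. Their percentiles were 82.3 and 88.3, 30.4 and 92.2, and 62.9 and 75. The first of these places was not particular to macrophages, as MT had an H3K18la maximum at -8.53 kb too, at 21.1. In GAS the body was marked, with H3K18la at 80.3 and H3K27ac at 83.2 about 15.5 to 15.7 kb into the gene, while the start carried H3K27me3. GAS is the list in which 2 of 6 macrophage markers (Csf1r and Spi1) were called together with all 4 endothelial and all 4 fibroblast markers. In MT, which also had peaks in the Emb body, 3 of 6 macrophage markers (Csf1r, Cd68 and Spi1) were called. The part of such cells in the Emb and Slc16a7 peaks of these lists was not tested.

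**Figure D4:**
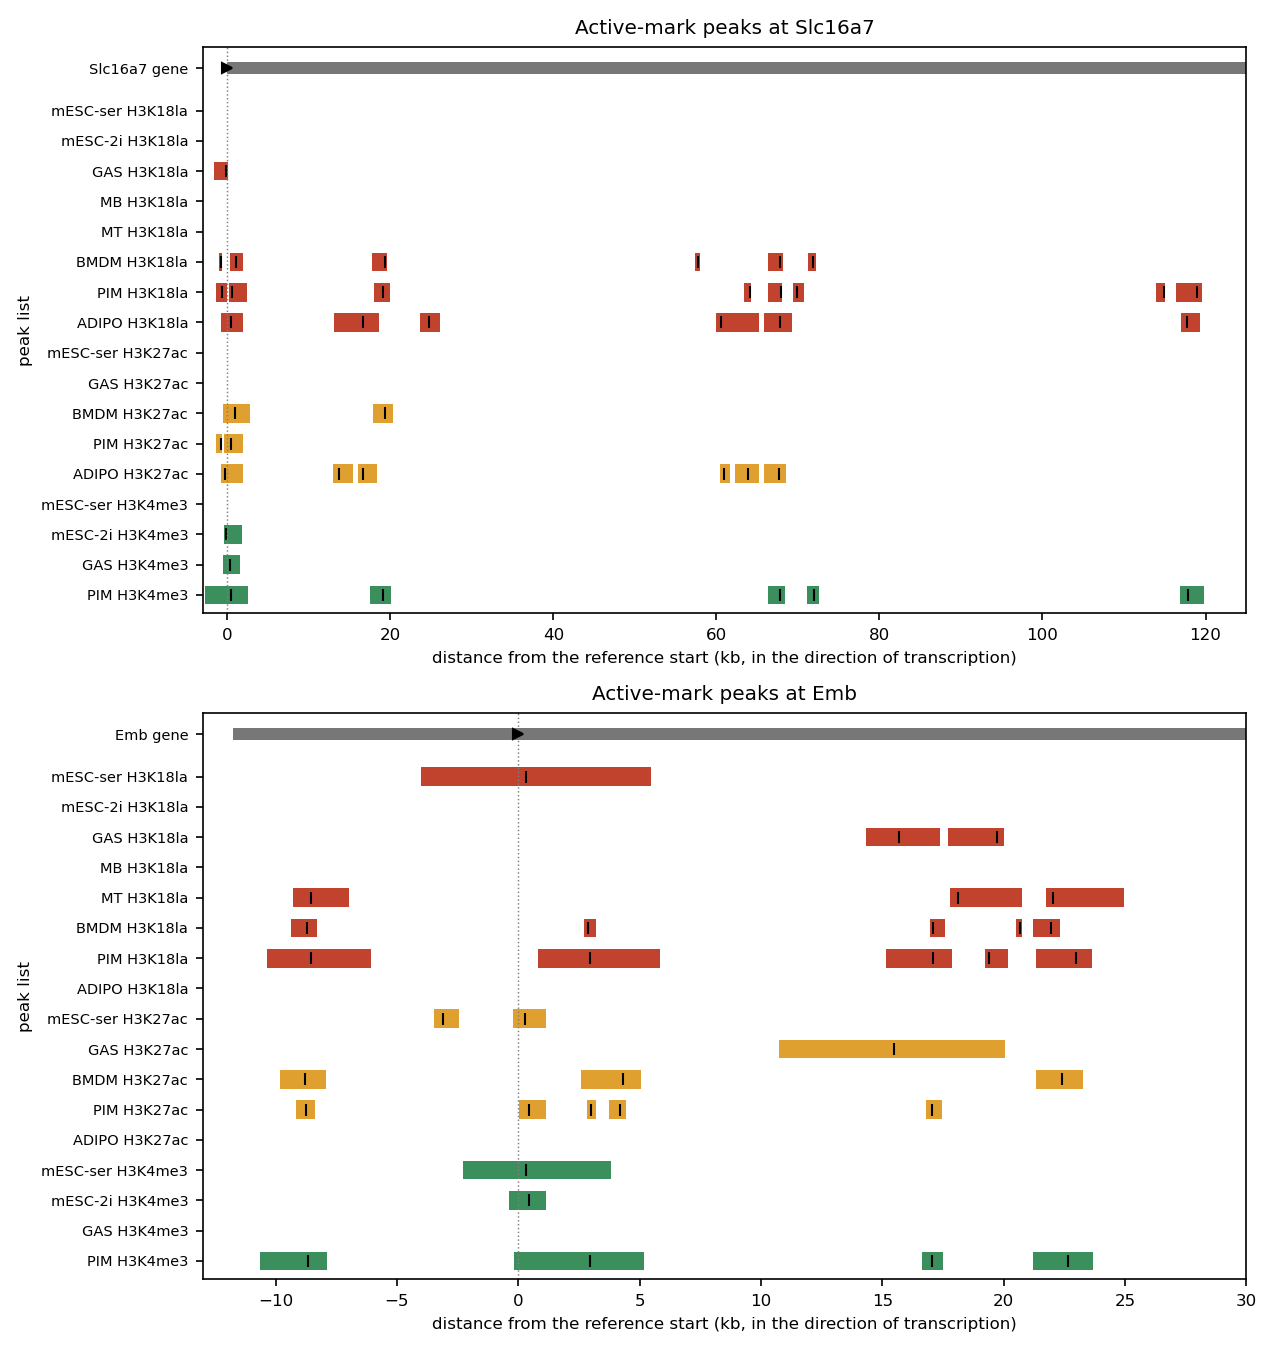
Peaks of the active marks at Slc16a7 (top) and Emb (bottom, up to 30 kb into the gene), by list (rows, coloured by mark) and distance from the reference start in kb (x axis), with ticks at the maxima. BMDM and PIM align at 19.2 to 19.3 kb in Slc16a7 and at 17.1 kb in Emb, and ADIPO has peaks in Slc16a7 and none in Emb.

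The Emb window shared by the macrophages is shown for comparison with that of Slc16a7. It is chr13:117237172-117237471, intronic and read on the plus strand.
Emb intron window: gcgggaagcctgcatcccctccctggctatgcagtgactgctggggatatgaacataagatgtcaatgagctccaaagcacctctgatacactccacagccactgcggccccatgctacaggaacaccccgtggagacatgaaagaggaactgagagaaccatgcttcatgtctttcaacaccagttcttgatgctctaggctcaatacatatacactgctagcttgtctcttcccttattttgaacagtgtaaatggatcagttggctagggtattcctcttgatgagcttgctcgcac
It held neither GAGGAAGT nor TGANTCA, so no base is in capitals, and had 4 CpGs. It was covered in BMDM, PIM and GAS for H3K18la, in PIM and GAS for H3K27ac and in PIM for H3K4me3.

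Hcar1, the gene of the lactate receptor, was called for active marks in ADIPO alone. It lies at chr5:123876736-123880020 on the minus strand. H3K18la was called in ADIPO at 96.0 (rank 1150 of 28752, 9049 bp wide) and in 0 of the other 7 lists, and H3K27ac in ADIPO at 96.5 (rank 807 of 23089, 5174 bp wide) and in 0 of the other 4. H3K27me3 was called at 53.5 in mESC-ser, 78.5 in mESC-2i, 63.7 in GAS, 34.6 in BMDM and 82.2 in PIM, and not in MB or MT. By maximum signal GAS stood at 32.9 and BMDM at 16. H3K4me3 was called in none of its 4 lists. No H3K27me3 or H3K4me3 list of ADIPO was analysed here. In ADIPO the maxima of both acylations lay at -0.15 kb (H3K18la) and -0.025 kb (H3K27ac) from the start.

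**Figure D5:**
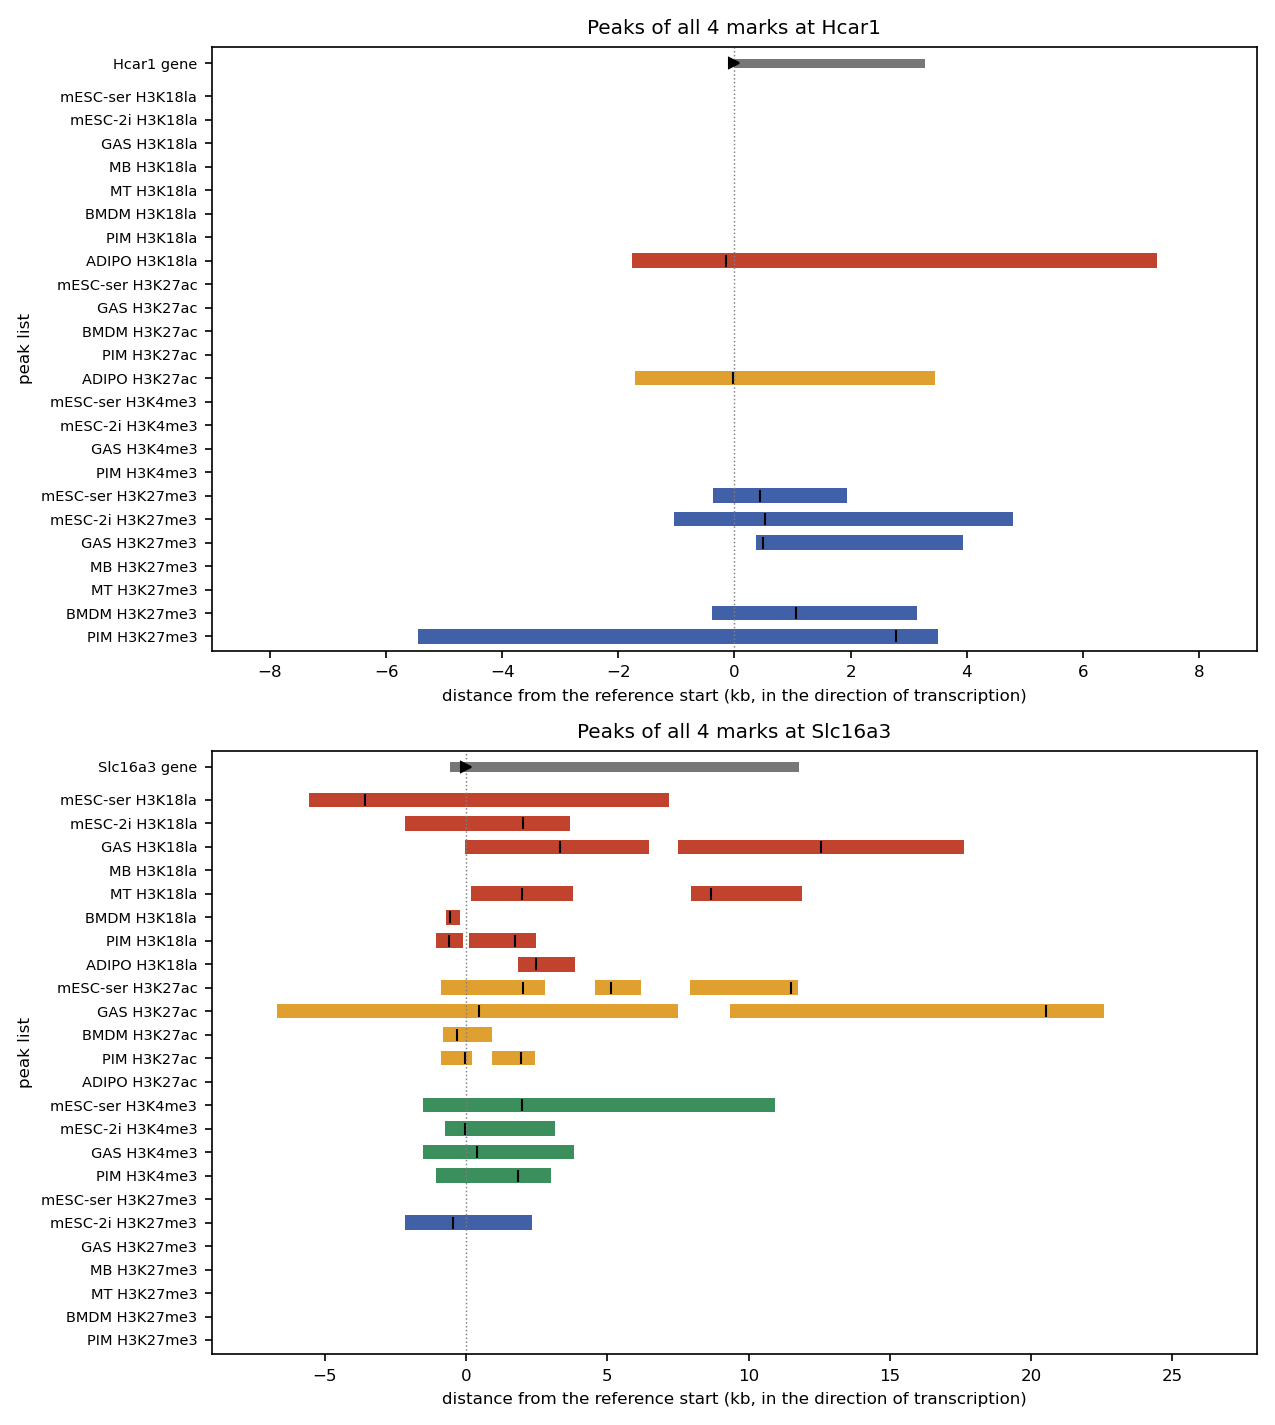
Peaks of the 4 marks at Hcar1 (top) and Slc16a3 (bottom) by list (rows, coloured by mark) and distance from the reference start in kb (x axis), with ticks at the maxima. At Hcar1 the acylations are present in ADIPO and H3K27me3 in 5 other cell types, and at Slc16a3 the mESC-2i list alone has H3K27me3, under its H3K18la peak.

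The bases before the Hcar1 start are shown because active marks were called on this gene in ADIPO and in no other cell type. The stretch is chr5:123880021-123880253, read on the minus strand and ending at the first exon, and holds no motif in capitals.
Hcar1 promoter: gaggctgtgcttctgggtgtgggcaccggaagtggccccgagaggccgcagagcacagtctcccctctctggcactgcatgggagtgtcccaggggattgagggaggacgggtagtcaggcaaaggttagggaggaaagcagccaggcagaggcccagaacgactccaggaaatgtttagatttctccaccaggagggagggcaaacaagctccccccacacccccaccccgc
The full 250 bases held 6 CpGs, the median of all promoter stretches, and none of the 3 motifs searched in promoters.

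H3K18la at the members lay mostly where the other active marks lay, as it did over all genes. In the 5 cell types with both acylations, 27 of 30 H3K18la calls (90%) had H3K27ac, against 86% over all genes, and 27 of 32 H3K27ac calls (84.4%) had H3K18la, against 67.9%. The exceptions with H3K18la alone were Ldhb in BMDM, Slc16a7 in GAS and Slc16a3 in ADIPO. H3K27ac stood alone at Slc16a1 in mESC-ser and GAS, Bsg in BMDM and PIM, and Emb in BMDM. All 24 H3K18la calls in the 4 cell types with H3K4me3 had that mark (91.5% over all genes), and 24 of 30 H3K4me3 calls (80%) had H3K18la, against 56.8%. H3K27me3 accompanied 5 of 33 H3K18la calls (15.2%, against 13.8%), namely Ldhb in mESC-ser, GAS and PIM, Slc16a7 in GAS and Slc16a3 in mESC-2i.

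H3K18la was set against H3K27me3 over the 7 cell types with both, by an exact two-sided sign-flip test of the percentile difference for each of the 21755 genes. After Benjamini-Hochberg adjustment 0 genes passed 0.05 (0% of genes), the lowest adjusted p of this exact test being 0.232, while 3032 (13.9%) had an unadjusted p below 0.05. The smallest p that 7 cell types allow is 0.0156, and it is larger for a gene with a difference of 0 in some cell types. The p-values of Ldha, Hcar1, Ldhd, Bsg and Slc16a1 below are the smallest that their nonzero differences allow. They restate in how many cell types the marks differed, always in the same direction. Ldha was the member below 0.05 before adjustment, with H3K18la 70.3 ± 32.7 percentile points above H3K27me3 (SD, n = 7, higher in 6 and equal in 1, exact p = 0.0312, adjusted p = 0.232). Its exact p was 0.0625 with promoters of 1 kb on each side, 0.25 with the top 5000 peaks, and 0.0625 on leaving out any of the cell types but MB. Each of these was again the smallest p that the remaining nonzero differences allow. Slc16a3 was higher by 43.7 ± 42.8 (SD, n = 7, higher in 5 and lower in 1, exact p = 0.0625, or 0.0312 on the bases covered). Hcar1 went the other way, at -44.6 ± 34.4 (SD, n = 7, lower in 5, exact p = 0.0625). Ldhd and Bsg had differences of 45.6 and 43.8 (exact p = 0.125 each), Ldhb 20.8 and Slc16a1 4.91 (exact p = 0.25 each). By maximum signal these differences were 38.1 for Ldhd, 27.7 for Bsg, 25.6 for Ldhb and 17.1 for Slc16a1. Emb had 17.4 (exact p = 0.5) and Slc16a7 5.88 (exact p = 0.938), with SDs of 57.8 and 57.9, and Ldhc was at 0 throughout. Leaving out 1 cell type moved Emb to as low as 4.31 (without mESC-ser) or 4.95 (without PIM) and as high as 31.4 (without GAS). It moved Ldhb to 12.6 (without mESC-2i) or 13.4 (without mESC-ser), and Slc16a1 to 2.97 (without MT). Slc16a7 changed sign, being -3.73 without BMDM, -8.03 without PIM and -2.84 by maximum signal, against 21.7 without mESC-ser.

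The 3 muscle cell types were compared with the other 5 cell types for H3K18la by an exact two-sided permutation test over the 56 possible assignments. Again 0 genes passed after adjustment (0% of genes, lowest adjusted p of the exact test 1), and 376 (1.73%) had an unadjusted p below 0.05, the smallest p allowed being 0.0179. The members' differences ran from -43.2 percentile points for Slc16a7 to 16 for Bsg. Ldhb had the lowest p of the members, with a mean of 14.1 in muscle and 56.8 elsewhere (exact permutation p = 0.0893, adjusted p = 1). With MB at 0 for each member, the muscle mean of each member contains at least that 1 empty list. The size and direction of the members' differences without MB were not examined.

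The pathway around these genes was followed through 24 further genes of pyruvate use, carriers and regulators. Their promoters had H3K18la in 88 of 192 combinations (45.8%), H3K27ac in 74 of 120 (61.7%), H3K4me3 in 65 of 96 (67.7%) and H3K27me3 in 27 of 168 (16.1%), each share below that of the members. Pkm, whose pyruvate kinase makes the pyruvate that lactate comes from, had H3K18la in 8 of 8 cell types including MB (74.7), between 73.9 and 97.9. Its relative Pklr, the liver and red cell form, had it in 0 of 8 and had H3K27me3 in 7 of 7. Myc, a regulator of glycolytic genes, was also called in 8 of 8. After Pkm, Pklr and Myc, each with an exact p of 0.0156 (adjusted p = 0.232) between H3K18la and H3K27me3, no further pathway gene had an unadjusted p below 0.05.

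Of the 11 genes of mitochondrial pyruvate use in the list, Pdk4 was the one with H3K18la in MB. Mpc1 and Mpc2, the mitochondrial pyruvate carrier, were called for H3K18la in 6 of 8 each, and Pdha1 and Pdhb, subunits of pyruvate dehydrogenase, in 6 of 8 each, with 0 of 7 H3K27me3 calls for all 4. Dlat, another subunit, had H3K18la in 2 of 8 beside H3K4me3 in 4 of 4. Pdk1, a kinase that switches the enzyme off, was high in mESC-ser (93.5) and mESC-2i (86.9) and 0 in BMDM, PIM and ADIPO. Pdk4, a kinase of the same family induced by fasting, was called in 6 of 8, with 95.9 in GAS, 57.6 in MB and 88.1 in ADIPO. Pdk2 was called in 5 of 8, Pdp1, a phosphatase that switches the enzyme on, in 4 of 8 and Pdk3 in 1 of 8. Pcx, which carboxylates pyruvate, stood at 99.9 in ADIPO, 77.0 in GAS and 68.4 in MT and 0 in the other 5.

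Of the further carriers and dehydrogenases most had little H3K18la. Slc16a8 (MCT3) was called in ADIPO at 96.7 with H3K27me3 in 5 of 7 lists, and Slc5a8, a sodium-coupled carrier, in 0 of 8 with H3K27me3 in 5 of 7. Slc16a4 and Slc5a12 had no promoter peak in any of the 24 lists, as Ldhc had none. Hcar2, the receptor of hydroxybutyrate beside Hcar1, stood at 88.0 in ADIPO and 10.8 in PIM for H3K18la. Of the further dehydrogenase-like genes, Uevld was called in 3 of 8 and Ldhal6b in 1 of 8. Of the regulators, Hif1a was called in 5 of 8, Esrra in 6 of 8 and Ppargc1a in 5 of 8, and Ppargc1a stood at 93.0 in GAS, 51.4 in MB, 80.5 in MT and 93.9 in ADIPO.

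For 4 members the genes with the most similar percentiles over the 24 lists were sought among all protein-coding genes, by the mean absolute difference. For Ldha they were Prune1 (7.85 percentile points), Tex2 (8.18) and Abhd11 (8.20), each with the same call in 24 of 24 lists. For Ldhb they were Rusc1 (13.9), Eef1akmt3 and Mettl1 (14.5 each), for Slc16a1 Gm28778, Ormdl1 and Pms1 (3.98 each), and for Slc16a3 Smtn (12.6), Dcaf4 (12.7) and Pik3ip1 (13.3). The calls of these genes matched those of their member in 21 of 24 lists for Rusc1 and the Slc16a1 group, 20 for the Slc16a3 group and 18 for Eef1akmt3 and Mettl1. Eef1akmt3 and Mettl1 both lie on chromosome 10, and Gm28778, Ormdl1 and Pms1 on chromosome 1.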

How the data were processed

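CUT&Tag reads were processed by the authors: per their methods and processing notes, reads were trimmed with Trim Galore (0.6.6), aligned to mm10 with Bowtie2 (2.4.4) and turned into coverage with bedtools (2.30), replicates were combined, and peaks were called with SEACR (1.3) as the top 1% of regions. The deposited lists give each peak's total signal and maximum signal as unscaled coverage, so signal was ranked within a list and not compared between lists. The depth of each sample is not in the lists. The maximum signal was used as an alternative.

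Peaks on chromosomes 1 to 19 and X were overlapped (1 bp or more) with GENCODE M21 starts and genes on GRCm38, the build of mm10, in Python (numpy and pandas). Calls were counted per list. Distances run from 1 reference transcript per gene. The exact tests were checked on simulated data, and p-values measure the spread between cell types. Bases came from RefSeq promoters and GRCm38. Named genes were the members, genes under the same peaks, nearest patterns and the pathway list; the windows shown at Ldha, Slc16a7 and Emb were chosen after the peaks were seen. Members and lists were chosen with earlier results of these data known. Where a stem cell list was named ESC alone it was read as the serum culture, because the mESC-2i lists carry 2i in their names.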

Additional observations from a re-analysis of the deposited data

How the results depend on the processing

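The counts of calls depended on how many peaks of a list were kept. With the top 5000 peaks of each list the promoter calls of the members fell to 14 for H3K18la, 14 for H3K27ac and 2 for H3K27me3, and the H3K18la calls including gene bodies to 18. With every list reduced to the bases of the smallest list they were 14 for H3K18la, 17 for H3K27ac and 0 for H3K27me3. Both settings keep fewer peaks by construction, and the shares of all genes fell to 8.38% and 6.22% for H3K18la, 16.1% and 22.4% for H3K27ac and 12.3% and 4.13% for H3K27me3. Narrower windows, coding starts, a 200 bp overlap and 1 reference start per gene (added after seeing the data) left each count within 1.5 times. At 1 kb Ldha lost its BMDM H3K18la call, Emb its BMDM H3K27ac call and Ldhb 1 of 3 H3K27me3 calls, and with coding starts Ldhd lost 1 of 5 H3K18la calls. Leaving out each cell type gave 33 to 41 H3K18la, 25 to 27 H3K27ac, 22 to 23 H3K4me3 and 9 to 13 H3K27me3 promoter calls, and 38 to 46 H3K18la calls with gene bodies.

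Neither test gave a gene at an adjusted p below 0.05 under any alternative run (exact tests, 0 of each). So few cell types allow no small p, which left little room for another outcome, so this is no measure of stability. For Slc16a7 the difference between H3K18la and H3K27me3 turned to -2.84 by maximum signal, -212 in bases covered and -2.25 with the top 5000 peaks, and ranged from -8.03 to 21.7 when a cell type was left out, being -3.73 without BMDM and -8.03 without PIM. Ldha, Ldhb, Ldhd, Slc16a3, Bsg, Emb and Hcar1 kept their direction, but with the top 5000 peaks Ldha fell to 24.6, Ldhb to 10.5, Ldhd to 21.2, Slc16a3 to 21.6, Bsg to 6.78 and Slc16a1 to 0, and Hcar1 went to -6.26. The genes at an unadjusted exact p below 0.05 fell from 3032 to 892 with the top 5000 peaks and to between 1535 and 2222 without 1 cell type. The muscle count of 376 fell to 90 and, by calls alone, to 139, and was 228 without mESC-2i, 250 without mESC-ser, 572 without GAS and 774 without MB. No paired analysis was possible because replicates had been combined before peak calling, so that replicate numbers could not pair samples. H3K18la and H3K27me3 were paired by cell type. Depth per sample is not in the peak lists and was not used, so a missing peak is not shown to be a missing mark.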
